A study of Mus musculus with 3 samples.

Results

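The contractile and sarcomere genes described here are 40 genes of actin filaments and the myosin, tropomyosin, troponin and linker proteins that act on them. They were chosen by name: a gene belongs if one of 40 listed symbols equals the gene name of a non-control spot on the arrays. All 40 were found, out of 27962 gene names on the array, and all 40 were bright enough to be tested, out of 19664. They comprise 11 genes best known from smooth muscle, 12 of non-muscle or broadly used isoforms and 17 of striated (skeletal and heart) muscle.

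The study set mouse embryonic stem (ES) cells, which are pluripotent, against mouse embryonic fibroblasts (MEF), the connective tissue cells grown from fetuses, to find which genes differ in expression. Both were untreated. ES cells had grown in Knockout DMEM with serum, 2-mercaptoethanol and leukemia inhibitory factor, which keeps them undifferentiated, and MEF in DMEM with heat-inactivated serum. The cell line, strain, passage and embryonic age are not given in the sources used here. Each of 3 arrays took both RNAs at once, 1 ES cell replicate with the green dye Cy3 and MEF with the red dye Cy5, so every value below is a log2 ratio of ES cells over MEF, and a negative value means a lower level in ES cells.

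Contraction rests on myosin filaments that pull on actin filaments. In striated muscle both are ordered into sarcomeres, where actinin anchors the thin filaments and troponin with tropomyosin makes contraction depend on calcium. Smooth muscle has no troponin: phosphorylation of the myosin regulatory light chain starts contraction, and calponin and caldesmon sit on the thin filament. Fibroblasts use non-muscle myosin and broad tropomyosins in stress fibres, and under tension or TGF-beta they take up smooth muscle isoforms, the state called a myofibroblast. Serum response factor (SRF), which binds a promoter element named the CArG box, drives many of these genes.

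Probes of actin genes need care because mammalian actins have nearly the same coding sequence. The probes that stood for 3 of the 4 muscle actins among the genes are printed here because the ratios of these genes are set side by side further on. Positions are those in the scanner files, on mouse build mm7, and letters run in the direction of the probe.
Acta1 (skeletal), chr8:122479438-122479497, minus strand: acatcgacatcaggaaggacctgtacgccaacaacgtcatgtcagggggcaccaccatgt
Acta2 (smooth muscle, aortic), chr19:33949738-33952992, minus strand: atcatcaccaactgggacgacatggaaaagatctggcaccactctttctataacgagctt
Actc1 (cardiac), chr2:113789115-113790038, minus strand: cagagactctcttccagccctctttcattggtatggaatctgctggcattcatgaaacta
The coordinates of the Acta2 and Actc1 probes span more than the 60 bases of a probe, so the files align both in more than 1 piece. How far any of these probes also takes up RNA of another actin was not tested. No probe of the 4 genes shared a stretch of 16 bases with a probe that the files name as another actin gene. That search compared probes with probes, not with RNA, so it cannot show which actin RNA a probe takes up.

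The share of gene spots well above background was 68.6% to 70.6% for ES cells and 68.2% to 74.0% for MEF. Log2 ratios correlated between arrays at 0.998 across genes, which are not independent replicates, and the median SD of a gene was 0.028. The labels do not say whether the ES cell replicates were separate cultures, so the p-values rest on the spread between arrays alone, and that spread may be technical. MEF RNA is treated as a single control whose own spread is not measured, and without a dye swap any dye bias of a probe remains in its ratio. Of the cell type markers, 9 of 9 tested for pluripotency were higher in ES cells and 11 of 11 for fibroblasts were lower. All 7 leukocyte markers were lower in ES cells too, with a summed spot signal of 398130 to 434499 in the MEF channel against 9436 to 9769 in ES cells. The part of such cells in the values below was not tested.

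Contractile genes were mostly lower in ES cells. Of the 40 genes, 26 were called lower and 6 higher, at an adjusted p under 0.05 (limma) and at least 2-fold, and 8 were not called. Over all 19664 genes, 22.4% were called lower and 20.3% higher by the same rule. The median log2 ratio of the 40 was -2.44, against -0.05 over all genes. The 40 genes were also counted by class. In the smooth muscle class 10 of 11 were lower and none was higher (median -2.98). In the non-muscle class, which takes in broadly used isoforms and all 4 tropomyosins, 9 of 12 were lower and none was higher (median -2.54). In the striated class 7 of 17 were lower and 6 were higher (median -0.08). All 6 genes called higher were striated isoforms. Adjusted p-values of the 32 called genes ran from 1.64e-07 to 2.30e-05 (limma). Since 95.5% of all genes had an adjusted p under 0.05, the 2-fold minimum sets the calls. In whole cultures, fewer cells that express a gene and less RNA per cell cannot be told apart.

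**Figure D1:**
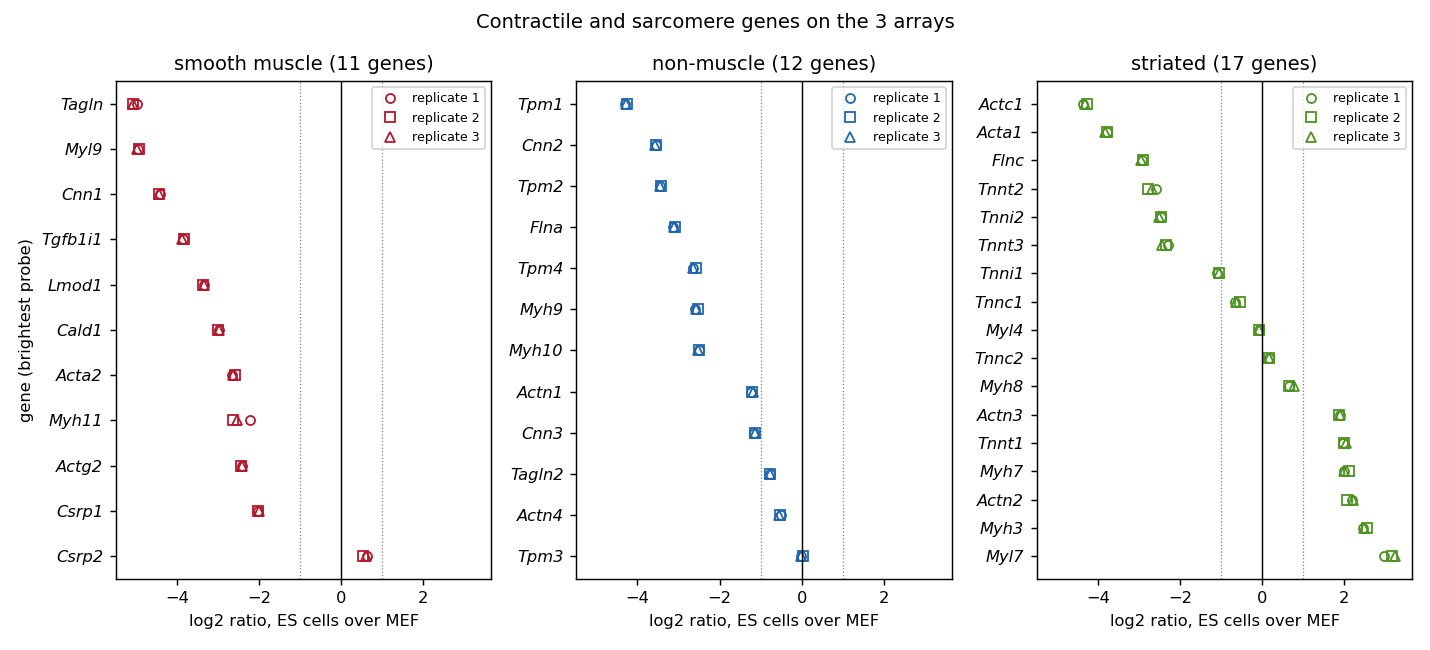
Log2 ratio of ES cells over MEF (x axis) of each of the 40 genes (y axis, brightest probe), in 3 panels for smooth muscle, non-muscle and striated genes; each open symbol is 1 array, the solid line marks no difference and the dotted lines mark 2-fold. The symbols of a gene nearly coincide, with the widest spread at Myh11 (SD 0.22), and the genes beyond the right dotted line are all in the striated panel.

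**Figure D2:**
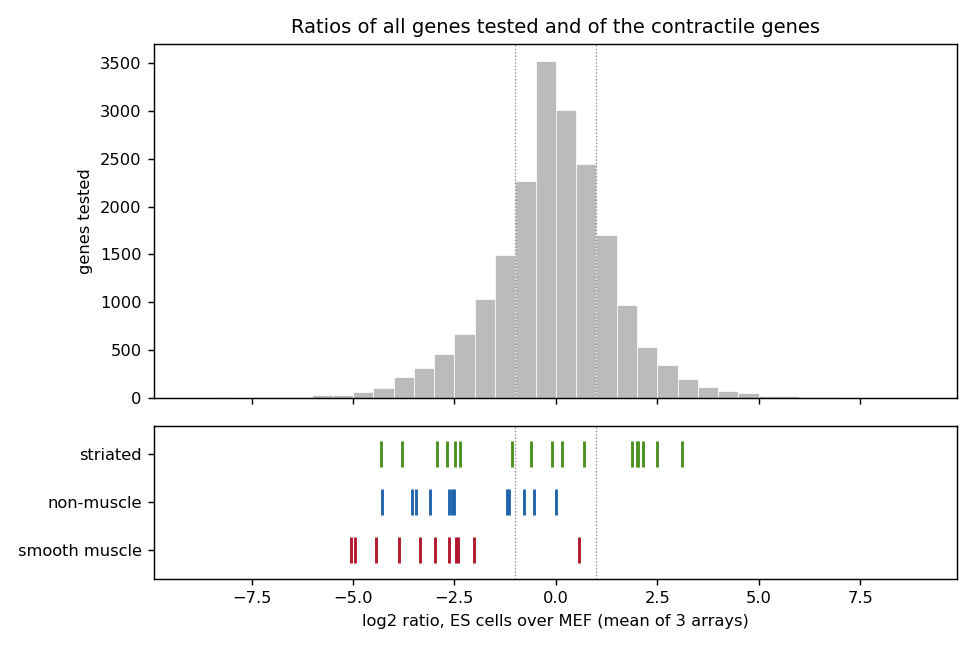
Number of genes (y axis) in steps of 0.5 of the log2 ratio of ES cells over MEF (x axis, mean of 3 arrays) for the 19664 genes tested, with 1 tick per contractile gene below, by class; dotted lines mark 2-fold. Most ticks of the smooth muscle and non-muscle classes lie in the left tail, and the striated ticks reach into both tails.

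The smooth muscle class held the lowest ratios. Tagln (SM22-alpha), an actin-binding protein of the calponin family and an early marker of smooth muscle, stood at -4.97, -5.08 and -5.07 on arrays 1 to 3, a 32.9-fold difference (mean -5.04 ± 0.056, SD, n = 3; adjusted p = 1.79e-07, limma). Its spots read 8360 to 9075 in ES cells and 263897 to 266849 in MEF, before background correction, so the channels did not overlap. Only 0.341% of all genes had a ratio as low. A second Tagln probe gave -3.94 ± 0.013, a 15.4-fold difference, and the mean of both was -4.49, which would place Tagln above Myl9. Myl9, the regulatory light chain whose phosphorylation starts smooth muscle contraction, stood at -4.95, -4.92 and -4.96, a 30.8-fold difference (adjusted p = 1.64e-07, limma). Cnn1 (calponin 1), which binds actin and restrains myosin, stood at -4.40, -4.45 and -4.45, or 21.6-fold (adjusted p = 1.64e-07, limma). All 3 were detected in ES cells on every array, with spots of at least 8360 units for Tagln, 6569 for Myl9 and 4261 for Cnn1.

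Linkers and thin filament proteins of the same class followed. Tgfb1i1 (Hic-5), a LIM adaptor of focal adhesions induced by TGF-beta, stood at -3.86, -3.84 and -3.87, a 14.5-fold difference. Lmod1 (leiomodin 1), which nucleates actin filaments in smooth muscle, stood at -3.34, -3.37 and -3.35. Cald1 (caldesmon), which holds tropomyosin on actin, stood at -2.98, -2.99 and -2.97. All 3 were below MEF by far more than the arrays differed. Csrp1, a LIM protein of the actin cytoskeleton, stood at -2.02, -2.02 and -2.01. Its paralog Csrp2, known from vascular smooth muscle, was the exception of the class at 0.62, 0.54 and 0.59, above MEF but under 2-fold (mean 0.58 ± 0.039, adjusted p = 1.80e-05, limma). Csrp1 and Csrp2 thus lay 6.07-fold apart in their ratios, and their array ranges did not overlap.

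Myh11, the myosin heavy chain that defines differentiated smooth muscle, was dim in ES cells. Its spots read 183 to 260 in ES cells and 1018 to 1072 in MEF. The ratios were -2.22, -2.63 and -2.53, a 5.49-fold difference with the largest SD among the 40 genes (0.22; adjusted p = 2.30e-05, limma). Array 1 gave the smallest difference and had the brightest ES cell spot. The scanner software's processed signals gave a larger difference for Myh11, -3.04. Both smooth muscle actins were also lower. Actg2, the enteric form, stood at -2.42, -2.43 and -2.42. Acta2 (alpha-smooth muscle actin), the usual marker of myofibroblasts, stood at -2.67, -2.60 and -2.63 by its brightest probe, a 6.20-fold difference (adjusted p = 2.53e-07, limma).

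The Acta2 value depends strongly on the probe. Brightness here is the mean of the log2 signals of both channels, and by it the probe printed above led the 5 probes of the gene. A probe at chr19:33942803-33942862, spotted 10 times on each array, gave -5.81, -5.86 and -5.81 (mean -5.83 ± 0.026), a 56.7-fold difference. In MEF alone that probe was the brighter one, at 368941 to 382918 spot units against 135839 to 151595 for the printed probe. A neighbouring probe at chr19:33942440-33942499 gave -5.13 ± 0.022, and one at chr19:33941939-33941997 gave -3.36 ± 0.18. The fifth, at chr19:33954688-33954747, was not well above background in ES cells and gave a bound of at least 2.10-fold lower. All 5 were called lower. Their log2 ratios ranged over 4.66, the widest range among these genes, and the mean over probes was -3.62. Both values include the fifth probe, whose ratio is only a bound. The probes well above background in ES cells ran from -5.83 to -2.63, a narrower range than the 3.70 between the probes of Tpm1. The brightest Acta2 probe shared 36 of 59 aligned bases with a probe for an unnamed transcript cluster (log2 ratio -1.55), the only overlap found between a probe of these 4 actin genes and any other probe.

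Both striated actins were lower in ES cells too. Actc1, the cardiac form, stood at -4.37, -4.26 and -4.32, a 19.9-fold difference (adjusted p = 1.89e-07, limma). Acta1, the skeletal form, stood at -3.79, -3.78 and -3.82, a 13.9-fold difference (adjusted p = 1.64e-07, limma). Both had 1 probe each, bright in MEF (77309 to 81697 and 33176 to 34442 spot units) and well above background in ES cells. All 4 muscle actins were thus lower in ES cells, in the order Actc1, Acta1, Acta2 and Actg2 by the brightest probe. Neighbours in that order did not overlap between arrays. Acta2 would come first by its 10-spot probe. Of the cytoplasmic actins, Actb had 2 probes at -1.56 ± 0.0091 and -1.42 ± 0.022, both lower in ES cells. The brighter Actb probe has coordinates on chromosome X, whereas RefSeq places the gene on chromosome 5, where the other probe lies. Actg1 had no probe under that symbol.

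Among transgelins and calponins, the smooth muscle isoform had the lowest ratio in each family, and a non-muscle isoform the ratio nearest to 0. Tagln2, the transgelin of non-muscle cells, stood at -0.77, -0.78 and -0.77, under 2-fold, and its ratio was 19.2-fold higher than that of Tagln. Cnn2, a calponin of fibroblasts and blood cells, stood at -3.55, -3.54 and -3.57. Cnn3, the acidic calponin found in many tissues, stood at -1.16, -1.14 and -1.14, just past 2-fold. The ratio of Cnn1 was 1.84-fold below that of Cnn2, and that of Cnn2 5.31-fold below that of Cnn3. None of these ranges overlapped between arrays.

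Tropomyosins, the rods that lie along actin and decide which myosins and regulators may bind, split into 3 lower genes and 1 that was not called. Tpm1 stood at -4.30, -4.26 and -4.29, a 19.5-fold difference (adjusted p = 1.64e-07, limma). Tpm2 stood at -3.46, -3.42 and -3.45, and Tpm4 at -2.64, -2.57 and -2.66. These 3 kept apart on every array. Tpm3, whose short isoforms are used by most cells, stood at -0.01, 0.02 and -0.01 (mean 0.00 ± 0.017, adjusted p = 0.896, limma), with spots of 91152 to 93514 units in ES cells and 88858 to 92084 in MEF. A second Tpm3 probe gave 0.46 ± 0.025, and processed signals gave 0.14 for the first, both under 2-fold. The ratio of Tpm1 was 19.5-fold below that of Tpm3.

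Tpm1 also differed along its own length. The gene makes many isoforms from alternative promoters, inner exons and last exons, one of which serves striated muscle. Its brightest probe lay at chr9:67054531-67054590. The other 2 probes are printed because their ratios differ, with the stop codon in capitals.
Tpm1, inner probe, chr9:67064287-67065357, minus strand: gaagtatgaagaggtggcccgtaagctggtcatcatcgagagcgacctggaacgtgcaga
Tpm1, probe with a stop codon, chr9:67059621-67061176, minus strand: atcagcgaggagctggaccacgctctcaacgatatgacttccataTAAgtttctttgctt
The inner probe gave -3.16, -3.16 and -3.17, and the probe with the stop codon gave -0.58, -0.58 and -0.60 (mean -0.59 ± 0.016). The latter names a different cDNA than the RefSeq transcript of the others, and its stop codon begins at base 46, with 12 bases after it. The 3 probes thus spanned 3.70 log2 units, all below 0, and their mean of -2.68 still passed the call. Which last exon the probe belongs to was not determined.

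Non-muscle motors and cross-linkers were lower as well. Myh9, the heavy chain of non-muscle myosin IIA, stood at -2.60, -2.52 and -2.58, and Myh10, of myosin IIB, at -2.50, -2.51 and -2.52. Their ranges overlapped, and the ratios differed by -0.06 ± 0.049 (log2, SD, n = 3). With 3 arrays the smallest p of an exact two-sided sign permutation test on such a pair is 0.25, so paired differences are given with their spread only. A second Myh9 probe, about the other end of the gene on the files' coordinates (chr15:77889081-77889140 against chr15:77843555-77843614), gave -0.32 ± 0.018, and the mean of both was -1.44. This second probe names a different RefSeq transcript and was far dimmer. It read 356 to 365 units in ES cells and 404 to 424 in MEF, against 35376 to 41018 and 211126 to 227144 for the brightest. The second Myh10 probe above background gave -2.50, almost the same value as the brightest.

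Flna (filamin A), which cross-links cortical actin and ties it to integrins, stood at -3.14, -3.08 and -3.11, an 8.62-fold difference. Flnc, the filamin of striated muscle Z-discs, stood at -2.93, -2.91 and -2.96. In both filamins the probes farthest from the brightest one gave ratios nearer to 0, and they were also far dimmer. In MEF the farthest Flna probe read 606 to 817 units, against 275461 to 288174 for the brightest. The Flnc probes with ratios nearer to 0 read 181 to 426 in MEF, against 26634 to 27139. Whether position or dimness goes with these ratios was not tested. Flna gave -3.11 at chrX:69610154-69610213, -2.28 at chrX:69610624-69611457 and -0.71 ± 0.082 at chrX:69623401-69623460. Flnc gave -2.93 and -2.97 at 2 probes within chr6:29393255-29393838, -1.02 ± 0.10 at chr6:29385371-29385430 and -0.61 ± 0.079 at chr6:29370888-29370947, where the ES cell spot was above background on 1 array. The means over probes were -2.03 for Flna and -1.88 for Flnc, both still past 2-fold. Which exon, intron or untranslated region each stretch falls in was not determined, for want of an annotation of build mm7.

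**Figure D3:**
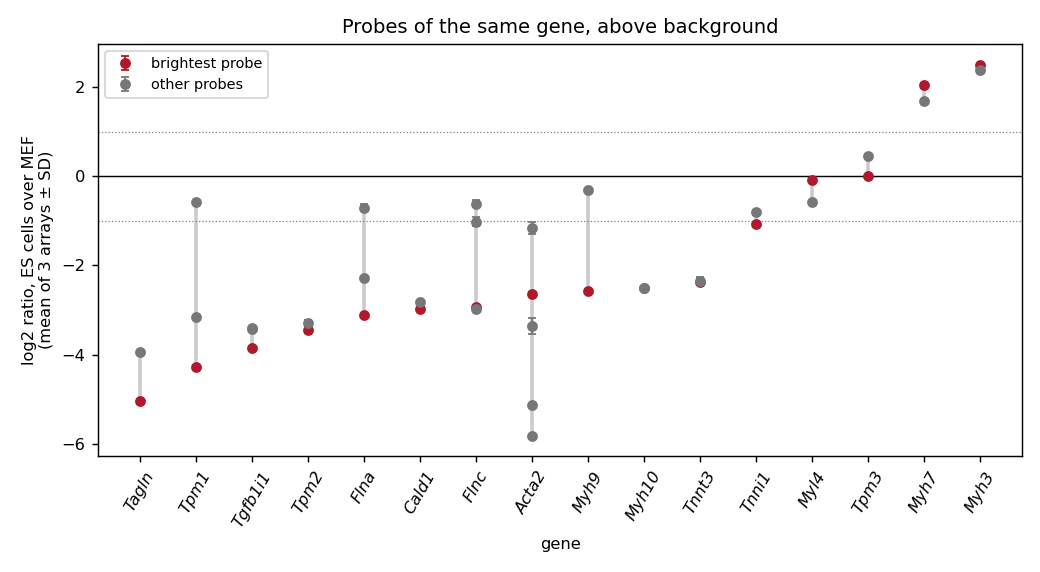
Log2 ratio of ES cells over MEF (y axis) of each probe above background, for the 16 genes with more than 1 such probe (x axis); points are means of 3 arrays, bars are SD, dotted lines mark 2-fold and the grey line joins the lowest and highest probe of a gene. Acta2, Tpm1, Flna, Flnc and Myh9 have the longest lines, from 2.25 to 4.66 log2 units, and no gene has probes beyond 2-fold on both sides. The upper end of the Acta2 line is a probe that was not well above background in ES cells.

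Across the list, 18 genes had more than 1 probe and 16 had more than 1 above background. In 11 of these 16 all probes had the same call. In Flna, Flnc, Myh9, Tnni1 and Tpm1 the calls differed between probes. In none did probes pass the call in opposite directions. The median range between probes of a gene was 0.46 log2 units, much wider than the spread between arrays.

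The actinins, which cross-link actin in stress fibres and at the Z-disc, divided by isoform. The 2 non-muscle forms were lower or near MEF: Actn1 at -1.23, -1.21 and -1.19 and Actn4 at -0.50, -0.53 and -0.55. The 2 sarcomeric forms were higher. Actn2, of heart and skeletal Z-discs, stood at 2.19, 2.06 and 2.21, a 4.46-fold difference (adjusted p = 1.70e-06, limma). Actn3, of fast skeletal fibres, stood at 1.90, 1.88 and 1.89, a 3.70-fold difference (adjusted p = 2.20e-07, limma). Actn2 spots read 709 to 756 units in ES cells and 132 to 155 in MEF, where they were well above background on 2 of 3 arrays. Actn3 spots read 3512 to 3614 and 851 to 864. The ratios of Actn2 and Actn3 were 10.3-fold and 8.55-fold above that of Actn1, with no overlap. Median centring, which shifted the median of all genes by 0.16, took Actn1 to -0.94 and below the 2-fold minimum. The Actn4 probe shares 37 bases, on the opposite strand, with a probe of Capn12 (log2 ratio 0.25).

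Striated myosin genes supplied 3 of the 6 genes called higher. Myl7, the regulatory light chain of the atrium, stood at 2.96, 3.15 and 3.24, an 8.68-fold difference (mean 3.12 ± 0.14, adjusted p = 2.88e-06, limma). Its spots read 4856 to 5071 units in ES cells and 453 to 542 in MEF. The order of the arrays followed the MEF spots, which were dimmest on array 3. Myh3, the embryonic skeletal heavy chain, stood at 2.46, 2.55 and 2.48, a 5.65-fold difference (adjusted p = 3.69e-07, limma). Myh7, the slow and ventricular heavy chain, stood at 2.00, 2.10 and 2.00, or 4.09-fold (adjusted p = 1.03e-06, limma), and at 3.08 in the authors' deposited value table. Myh7 was dim, with spots of 681 to 699 units in ES cells and 146 to 150 in MEF. The second probes of both heavy chains agreed in call, at 2.38 for Myh3 and 1.69 for Myh7, but each overlaps the first, by 32 and 55 bases, and is no separate measurement.

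The other sarcomeric myosins were nearer to MEF. Myh8, the perinatal heavy chain, stood at 0.65, 0.65 and 0.76 and was not called. The scanner software's processed signals took it to 1.13 and past the threshold. The other 3 Myh8 probes were not well above background in either cell type. Myl4, the essential light chain of atrium and embryonic muscle, stood at -0.09, -0.08 and -0.08, and turned to 0.05 with processed signals and 0.13 with median centring. Its second probe, which overlaps the first by 47 bases, gave -0.58. Of the 2 regulatory light chains, smooth muscle Myl9 was lower and atrial Myl7 higher, 268-fold apart in their ratios.

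Troponins, the calcium switch of striated muscle, went both ways. Of the tropomyosin-binding T subunits, slow skeletal Tnnt1 was higher at 1.98, 1.98 and 2.03 (mean 2.00 ± 0.032, adjusted p = 3.60e-07, limma). Its spots read 5031 to 5163 units in ES cells and 1096 to 1149 in MEF. Cardiac Tnnt2 was lower at -2.59, -2.77 and -2.69, and fast skeletal Tnnt3 at -2.29, -2.36 and -2.43. Tnnt1 was 25.6-fold above Tnnt2 and 20.5-fold above Tnnt3 in its ratio. Of the inhibitory I subunits, fast Tnni2 stood at -2.46, -2.46 and -2.50. Slow Tnni1 stood at -1.09, -1.05 and -1.06, at the edge of the call, which it lost with median centring (-0.96) and by the mean of its probes (-0.94).

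The calcium-binding C subunits were not called. Tnnc1, of slow and cardiac muscle, stood at -0.66, -0.54 and -0.65, and fast Tnnc2 at 0.17, 0.16 and 0.17. Apart from Tnnt1, the brightest troponin probes were dim in ES cells, between 145 and 306 units, though each passed the background test on every array. The second Tnnt3 probe did not pass it in ES cells on any array, and the second Tnnt2 probe did not pass it in either cell type. In MEF the brightest troponin probes reached 1512 units, at Tnni2. With no constant added in background correction Tnnt2 stood at -3.09, Tnnt3 at -2.85 and Actn2 at 2.61. With processed signals Tnnt2 stood at -3.41, Tnnt3 at -3.22 and Actn2 at 3.34, each further from 0 by over 1.5-fold.

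Markers of skeletal and heart muscle cells are given beside the striated genes. Of 14 skeletal muscle markers, 10 were tested, 3 of them lower (30.0%) and 2 higher (20.0%), against 22.4% and 20.3% of all genes (median -0.10). The lower ones were Pax3 (at least 4.19-fold), Cav3 (at least 1.82-fold) and Des (-1.78), the first 2 not well above background in ES cells, and the higher ones were Mb (1.01) and Ttn (2.30). The myogenic regulators Myog, Myf5 and Myf6 and the creatine kinase gene Ckm were not well above background, and Myod1 stood at -0.18 ± 0.013. The summed signal of the tested markers ran from 3641 to 4215 in ES cells and from 4669 to 4953 in MEF. Of 13 cardiac markers, 9 were tested, 3 lower (33.3%) and 2 higher (22.2%; median -0.66). The lower ones were Tbx5 at -3.35 ± 0.033, Nppa at -1.59 ± 0.059 and Hand2 at -1.01 ± 0.091, the last well above background in ES cells on 1 of 3 arrays. The higher ones, Myh6 and Tnni3, are sarcomere genes that are also counted among the other contractile genes below. Myh6 was not well above background in MEF, which gives a bound of at least 2.315-fold higher. The heart factor gene Nkx2-5 stood at 0.30 ± 0.059 and Gata4 at -0.21 ± 0.075, while Tbx20, Myl2, Ryr2 and Pln were not well above background. Their summed signal ran from 3738 to 4136 in ES cells and from 5272 to 5411 in MEF.

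Among 11 smooth muscle and pericyte markers, 6 of 10 tested were lower (60%) and 1 higher (10%), against 22.4% and 20.3% of all genes (median -1.74). Mylk, Des and Smtn in it are also among the other contractile genes below. Itga8 stood at -4.09 ± 0.046, Rgs5 at -4.01 ± 0.075 and Mcam at 1.20 ± 0.017. Their summed signal ran from 50649 to 50819 in ES cells and from 74444 to 75487 in MEF. Outside those 3, the list had 3 lower genes (Itga8, Rgs5 and Cspg4), 1 higher (Mcam) and 3 not called: Notch3 at 0.63, Ppp1r14a at 0.90 and Kcnmb1 at -0.59, the last not well above background in ES cells. The part of such cells in the values of the contractile genes was not tested.

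Of 52 other contractile genes, 42 were tested, with 13 lower (31.0%) and 9 higher (21.4%; median -0.63). Over all genes 22.4% were lower and 20.3% higher, the latter close to the share in this list. The lowest were Mylk, the kinase that phosphorylates Myl9, at -4.96 ± 0.27, and the M-band gene Myom1 at -3.53 ± 0.039. The highest were Neb (nebulin), the ruler of the thin filament, at 3.33 ± 0.12, above background in MEF on 1 array, and Mybpc2, a thick filament protein of fast fibres, at 2.71 ± 0.049.

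The regulators of these genes were lower in part. Of 29 genes of SRF, MEF2 and RhoA signalling, 26 were tested, with 10 lower (38.5%) and 2 higher (7.69%; median -0.79). The shares over all genes were 22.4% lower and 20.3% higher. Srf itself stood at -0.94 ± 0.0018, just under 2-fold. Myocd (myocardin), the smooth and cardiac muscle coactivator of SRF, was not well above background. Mef2c (-3.84 ± 0.18) and the LIM coregulator Fhl2 (-3.72 ± 0.012) were lowest, and Mef2b (1.59 ± 0.056) and the formin gene Diap1 (1.13 ± 0.022) were higher. Of 22 focal adhesion genes, which anchor stress fibres, 13 were lower (59.1%) and none higher (median -2.12), against the same 22.4% and 20.3%. Zyx (zyxin) at -3.41 ± 0.021 and Ilk (integrin-linked kinase) at -3.04 ± 0.18 were lowest.

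**Figure D4:**
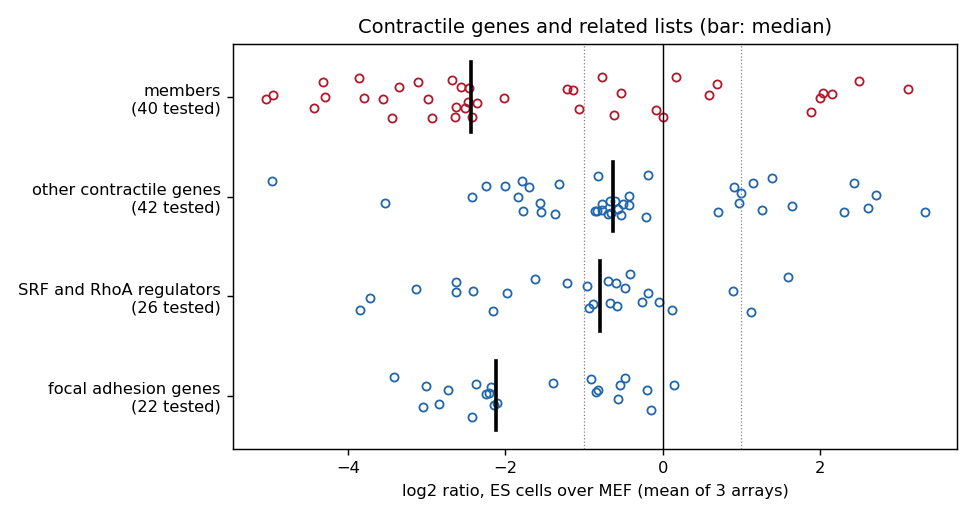
Log2 ratio of ES cells over MEF (x axis, mean of 3 arrays) of the 40 contractile genes and of the tested genes of 3 related lists (rows); each circle is 1 gene, black bars are medians and dotted lines mark 2-fold. Medians lie at -2.44 for the 40 genes, -0.63 for other contractile genes, -0.79 for SRF and RhoA regulators and -2.12 for focal adhesion genes.

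The 40 genes lie on 17 chromosomes, and some are neighbours. On chromosome 1, Lmod1, Csrp1, Tnni1 and Tnnt2 had their probes within 481.4 kb, and all 4 were lower in ES cells. Of 6 other tested genes between them, 2 were lower, 1 higher and 3 not called, from -1.81 to 1.13. On chromosome 7, Tnni2 and Tnnt3, a fast troponin pair, lay within 70.0 kb and were both lower (-2.47 and -2.36), as was the 1 tested gene between them, Lsp1 (-4.39), a leukocyte actin-binding protein. On chromosome 11, the skeletal heavy chain genes Myh3 and Myh8 lay within 207.1 kb, with 4 other tested genes between them. Myh3 was higher, and Myh4 between them stood at 1.14. Myh1 (-0.43), Myh2 (-0.56), a transcript without a gene symbol (-0.03) and Myh8 were not called.

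Promoters were searched for the CArG box, the SRF element, because SRF is the known driver of several of these genes. RefSeq promoter sequences (build GRCm38.p6, from 250 bases before to 50 after the start of transcription) were matched for 32 of the 40 genes. The box was searched as CC, then only A or T, then GG, 10 bases in all. Boxes with a mismatch were not searched, nor were the 8 genes without a promoter sequence. Such an exact CArG box lay in a promoter of 5 of the 32 (15.6%), against 1.81% of 27025 genes and 1.63% of 32851 promoters of the same length. The element reads as the same class on both strands. The 180 bases before the start are printed for these 5, with the CArG box in capitals.
Acta1, chr8:123894776-123894955, minus strand: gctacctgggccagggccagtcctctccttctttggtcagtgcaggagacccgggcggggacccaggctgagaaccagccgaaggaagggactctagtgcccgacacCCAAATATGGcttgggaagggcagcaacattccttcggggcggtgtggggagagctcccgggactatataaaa
Actc1, chr2:114052876-114053055, minus strand: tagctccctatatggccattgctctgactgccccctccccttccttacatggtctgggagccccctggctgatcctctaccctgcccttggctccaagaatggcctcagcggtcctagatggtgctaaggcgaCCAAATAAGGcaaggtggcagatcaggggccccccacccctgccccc
Cnn2, chr10:79988420-79988599, plus strand: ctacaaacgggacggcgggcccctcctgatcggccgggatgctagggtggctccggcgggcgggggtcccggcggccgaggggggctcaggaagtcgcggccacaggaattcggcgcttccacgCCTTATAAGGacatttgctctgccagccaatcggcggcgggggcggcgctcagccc
Myl9, chr2:156775284-156775463, plus strand: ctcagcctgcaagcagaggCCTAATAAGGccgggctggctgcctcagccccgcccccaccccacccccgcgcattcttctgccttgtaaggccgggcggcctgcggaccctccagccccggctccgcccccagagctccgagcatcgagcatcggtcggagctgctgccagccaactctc
Myl7, chr11:5898783-5898962, minus strand: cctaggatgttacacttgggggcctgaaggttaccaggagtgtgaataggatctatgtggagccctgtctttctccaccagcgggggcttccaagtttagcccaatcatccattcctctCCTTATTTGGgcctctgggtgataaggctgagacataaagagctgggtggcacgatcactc
Of these, 4 genes are lower in ES cells, namely Acta1, Actc1, Cnn2 and Myl9, and Myl7 is higher. The box began 73 bases before the start in Acta1, 47 in Actc1, 56 in Cnn2, 161 in Myl9 and 61 in Myl7. The word CATTCC, the core of the element bound by TEAD factors, was searched on both strands and found in 14 of the 32 genes (43.8%), against 16.6% of all genes and 14.7% of all promoters. It lay beside a CArG box in Acta1 and Myl7. TATAAA, also on both strands, was found in 7 of 32 (21.9%), against 15.7% of all genes and 13.6% of all promoters. These are matches of letters in a short window, and binding was not measured.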

How the data were processed

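RNA of 3 ES cell replicates and of MEF was measured on 3 two-colour arrays of 1 slide. Spots were read with Agilent Feature Extraction 9.5.3.1, per the file headers, and the deposited mean and background intensity values are not background-subtracted. Deposited processed intensities are corrected and dye-normalized by that software, per the file headers. A log2 value table that the authors deposited lay within 0.01 of the sign-turned log10 ratio (converted to log2) of the scanner files for 85.4% to 87.8% of probes. Its column medians are 0.213, 0.086 and -0.143, so it is not centred. One line of the design text names the Cy5 sample differently, and the sample labels were used.

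Signals were corrected with normexp (offset 50) and loess within arrays in limma 3.58.1 (R 4.3.3), without 117 to 144 outlier spots per array. Probes stayed in if well above background in 1 cell type on all 3 arrays (29458 of 41174). The brightest probe (mean log2 signal of both channels) stood for its gene name. Ratios were tested against 0 (lmFit, eBayes, Benjamini-Hochberg over 19664 genes), with a script tested on simulated data. The number of arrays limits the precision.

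The 40 members and all lists were chosen with earlier results of these data known, so they give no independent support. Named genes followed a written rule: every member, the 2 lowest and 2 highest called of each other list, and Actb, Actg1, Myocd and Srf. Neighbouring genes, overlapping probes, named cell type markers and promoter motifs were chosen after values were seen. The alternatives were other signals, offsets, centring, filters, probe rules, thresholds and left-out replicates. Members' probe chromosomes matched RefSeq (GRCm38.p6) for 40 of 40. One probe sequence is not reported here.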

Additional observations from a re-analysis of the deposited data

How the results depend on the processing

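Counts of contractile genes held under 15 alternatives: 24 to 30 were lower and 5 to 9 higher. Of 599 values of single genes, 583 kept their direction and call, 3 lost the call, 9 gained it and 4 changed sign, and 30 genes kept both throughout. Alternatives that changed only the threshold reuse the same ratios, so no direction could change in them. The other filters on dim probes also left the ratio of every member they tested unchanged. Myl4 turned to 0.0455 with processed signals and the authors' value table and to 0.13 with median centring, and Tpm3 ran from -0.0081 to 0.0072 when 1 replicate was left out (-0.0081 without replicate 2). Tpm3 stood at 0.14 with processed signals and the value table and at 0.23 with the mean of all probes, with adjusted p-values of 0.0019, 0.0019 and 7.37e-05 (limma), under 2-fold in each. Without a fold minimum, 9732 of all genes were lower and 9038 higher. The related lists were recounted after seeing the data. Without a fold minimum 29 other contractile genes, 22 regulators and 21 focal adhesion genes were lower. By the same rule 13 other contractile genes, 4 regulators and 1 focal adhesion gene were higher. By the mean of all probes 1 regulator was higher. The median of the 40 genes was -2.50 with normexp offset 0, -2.23 with median centring and -2.03 with the mean of all probes. In the same order, the smooth muscle median was -2.96, -2.71 and -3.35, the non-muscle median -2.50, -2.34 and -1.74, and the striated median -0.0743, 0.13 and -0.33. With processed signals and with the value table these 3 medians were -3.04, -2.43 and 0.0455, and above background in both channels the striated median was -0.35, without Actn2, which was not tested there. Leaving out 1 replicate gave medians of -2.45 to -2.40 for the 40 genes, -2.99 to -2.98 for smooth muscle, -2.55 to -2.53 for non-muscle and -0.09 to -0.08 for striated genes. The sign of the striated median is that of 1 gene, Myl4, near 0. No paired analysis was possible because the arrays form a single group, in which each ratio already pairs ES cells with MEF on 1 array. Dim genes had little signal over background: the brightest troponin probes other than Tnnt1 read 145 to 306 units in ES cells, over median backgrounds of 45 to 56.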
